A study of Mus musculus with 68 samples.

Results

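The P450 genes described here are the cytochrome P450 genes of mouse lung other than 6 left out by name (Cyp1a1, Cyp1a2, Cyp1b1, Cyp2e1, Cyp2a5 and Cyp2f2). They were taken by symbol, a family number, a subfamily letter and a gene number after Cyp, from an RNA-seq table of 23893 genes. Of the symbols so found, 29 stayed under a mean of 0.5 CPM (the count scaled to library size) in every group and 67 were kept. The choice used the highest group mean, so a gene could enter through the group where it was high. Of genes called between the strains below, Cyp2b9, Cyp2b23, Cyp2c55, Cyp4a29-ps, Cyp21a1, Cyp2a22 and Cyp2d11 reached the level in CAST/EiJ groups alone. Cyp26c1 reached it in C57BL/6J clean air alone. Their strain differences are in part set by the choice. Just inside that level stood Cyp2j13 (0.515 CPM in its highest group), Cyp21a1 (0.535), Cyp17a1 (0.579) and Cyp3a44 (0.593), and just outside it Cyp3a57 (0.499), Cyp2d12 (0.493) and Cyp11a1 (0.485). Of the 67 genes, 61 passed the filter on low counts and were tested, and Cyp17a1, Cyp2c40, Cyp2c67, Cyp2c69, Cyp2d40 and Cyp2j13 did not.

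All mice were wild-type males, and the tissue was lung. The mice inhaled 1,3-butadiene (BD), an industrial gas and carcinogen, on weekdays for 6 hours a day over 2 weeks, or breathed clean air. The 4 groups were CAST/EiJ under BD (6 libraries), CAST/EiJ in clean air (7), C57BL/6J under BD (6) and C57BL/6J in clean air (5). CAST/EiJ is a wild-derived inbred strain and C57BL/6J the strain of the reference genome. Libraries held 10597990 to 50001571 counts, so that 1 CPM stood for 10.9 counts in the smallest and 48.9 in the largest. The labels do not say whether replicates were separate animals prepared apart, and the p-values measure the spread between these libraries. In whole lung, fewer cells of a type and less RNA per cell cannot be told apart.

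Cytochrome P450s are haem enzymes that insert 1 atom of oxygen into fats, steroids, retinoids and foreign chemicals, with electrons from NADPH by way of a reductase. In the lung they sit mainly in club cells and alveolar type 2 cells, and they convert inhaled chemicals such as butadiene into more soluble but often more reactive products, among them epoxides that bind DNA. Families 2 (subfamilies a to d) and 3 act mostly on foreign chemicals and steroids, family 4 and subfamily 2j on fatty acids and eicosanoids, family 26 on retinoic acid, and families 7, 8, 27 and 39 on cholesterol products and bile acids.

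The 120 bases before the annotated starts of 6 of these genes are shown, and no result below rests on these bases. They are those of the reference genome, so they show no difference between the strains. Cyp2b10, Cyp2b13 and Cyp2b9 are neighbours on chromosome 7 with unlike strain differences, Cyp2j6 and Cyp2j9 are a pair on chromosome 4 that was low in CAST/EiJ, and Cyp4b1 is the most counted gene. Sequences are from RefSeq (GRCm38.p6), 5′ to 3′ on the gene's strand. In Cyp2b13 and Cyp2b9 capitals mark bases that differ from Cyp2b10 in an alignment, and in Cyp2j6 a CCAAT box read from the other strand (ATTGG).
Cyp2b10, chr7:25897538-25897657 (plus strand): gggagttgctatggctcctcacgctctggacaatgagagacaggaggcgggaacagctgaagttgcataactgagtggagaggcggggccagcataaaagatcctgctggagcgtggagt
Cyp2b13, chr7:26061375-26061494 (plus strand): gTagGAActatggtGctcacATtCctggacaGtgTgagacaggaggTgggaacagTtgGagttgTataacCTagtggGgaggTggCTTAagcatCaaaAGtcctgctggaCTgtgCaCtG
Cyp2b9, chr7:26173289-26173408 (plus strand): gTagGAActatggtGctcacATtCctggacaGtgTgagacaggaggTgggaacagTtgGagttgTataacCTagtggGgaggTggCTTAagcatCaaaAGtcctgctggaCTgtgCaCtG
Cyp2j6, chr4:96553652-96553771 (minus strand): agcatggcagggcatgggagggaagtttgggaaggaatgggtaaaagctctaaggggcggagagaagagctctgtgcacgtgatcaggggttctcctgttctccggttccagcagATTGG
Cyp2j9, chr4:96591486-96591605 (minus strand): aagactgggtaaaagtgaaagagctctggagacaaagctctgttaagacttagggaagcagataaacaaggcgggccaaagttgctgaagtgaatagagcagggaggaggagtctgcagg
Cyp4b1, chr4:115647722-115647841 (minus strand): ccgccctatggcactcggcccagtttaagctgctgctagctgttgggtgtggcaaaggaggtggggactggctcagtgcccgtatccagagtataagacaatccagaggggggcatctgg
Cyp2b13 and Cyp2b9 were identical over all 120 bases, and each matched Cyp2b10 in 90 of 122 aligned columns (73.8%). Cyp2j6 and Cyp2j9 matched in 58 of 127 (45.7%). The table held 51 of the 67 genes. In the window from 250 bases before to 50 after the start, on either strand, TATAAA stood in 21 of the 51 (41.2%), against 15.7% of all 27025 genes. CCAAT stood in 52.9% against 41.1%, the dioxin response core GCGTG in 23.5% against 35.2%, the antioxidant response core TGACNNNGC in 9.8% against 14%, and the nuclear receptor half-site AGGTCA in 25.5% against 18.1%. The 13 genes with AGGTCA included Cyp2b9 and Cyp2b13, and the 12 with GCGTG included Cyp2b10, Cyp2j9 and Cyp4v3. Cyp4b1 held none of the 5 motifs in its window. These matches describe letters and not bound sites.

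A pair of libraries stood apart. The library labelled CAST/EiJ BD with title number 8 went against its label. Of 5534 genes that separated the strains in clean air, it stood nearer to C57BL/6J in 87.5%. That share was 8.82–19.9% for the remaining libraries of its labelled group and 71.3–88.0% for C57BL/6J BD libraries. Its values are given apart, it is in none of the group values below, and CAST/EiJ BD therefore has 5 libraries. For 19 P450 genes that separated the strains under BD, it lay within the C57BL/6J range for 14 and within that of its labelled group for 2. The CAST/EiJ clean-air library with title number 2 carried liver RNA markers, as described with the liver-type genes below. Title numbers over 100 were held by 5 of 7 CAST/EiJ clean-air libraries, by 1 of 5 C57BL/6J clean-air libraries and by no BD library. Lung markers were present in all groups, and markers of other tissue varied widely within them. Squamous epithelium markers (10) summed to 5.45–2444 CPM in CAST/EiJ BD and 12.9–2304 in CAST/EiJ clean air. In C57BL/6J they summed to 3.90–1172 under BD and 3.51–1675 in clean air. For 10 heart muscle markers the sums were 391–3766, 793–3480, 591–1743 and 773–2543 CPM in the same order. Their part in the P450 values was not tested. Summed CPM of 10 alveolar type 2 markers was 30470.4–38627 in CAST/EiJ BD, 25926–42711 in CAST/EiJ clean air, 26722–30734 in C57BL/6J BD and 20723–25734 in C57BL/6J clean air, and that of 10 club cell markers was 6666–10278 in CAST/EiJ BD, 11606–16596 in CAST/EiJ clean air, 10290.2–14133 in C57BL/6J BD and 11339.9–15065 in C57BL/6J clean air.

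Few P450 genes supplied most of the counts. Cyp4b1, a fatty acid hydroxylase that also activates pulmonary toxins, took 44.0% of the counts of the 67 genes, and Cyp2b10, the phenobarbital-inducible P450 of mouse, took 24.7%. Cyp4v3, a fatty acid hydroxylase, took 4.36%, Cyp2s1, an epithelial P450 found outside the liver, 3.56%, Cyp2d22, of the drug-oxidising 2d subfamily, 3.34%, and Cyp39a1, an oxysterol hydroxylase, 2.01%. In its highest group 20 genes reached 10 CPM and 17 stayed under 1 CPM. The sum over the 67 genes was 1599–1916 CPM in CAST/EiJ BD, 1497–2313 in CAST/EiJ clean air, 1560.2–2183 in C57BL/6J BD and 1443–1552 in C57BL/6J clean air. C57BL/6J clean air had the narrowest range, and C57BL/6J BD lay above it in each library.

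**Figure D1:**
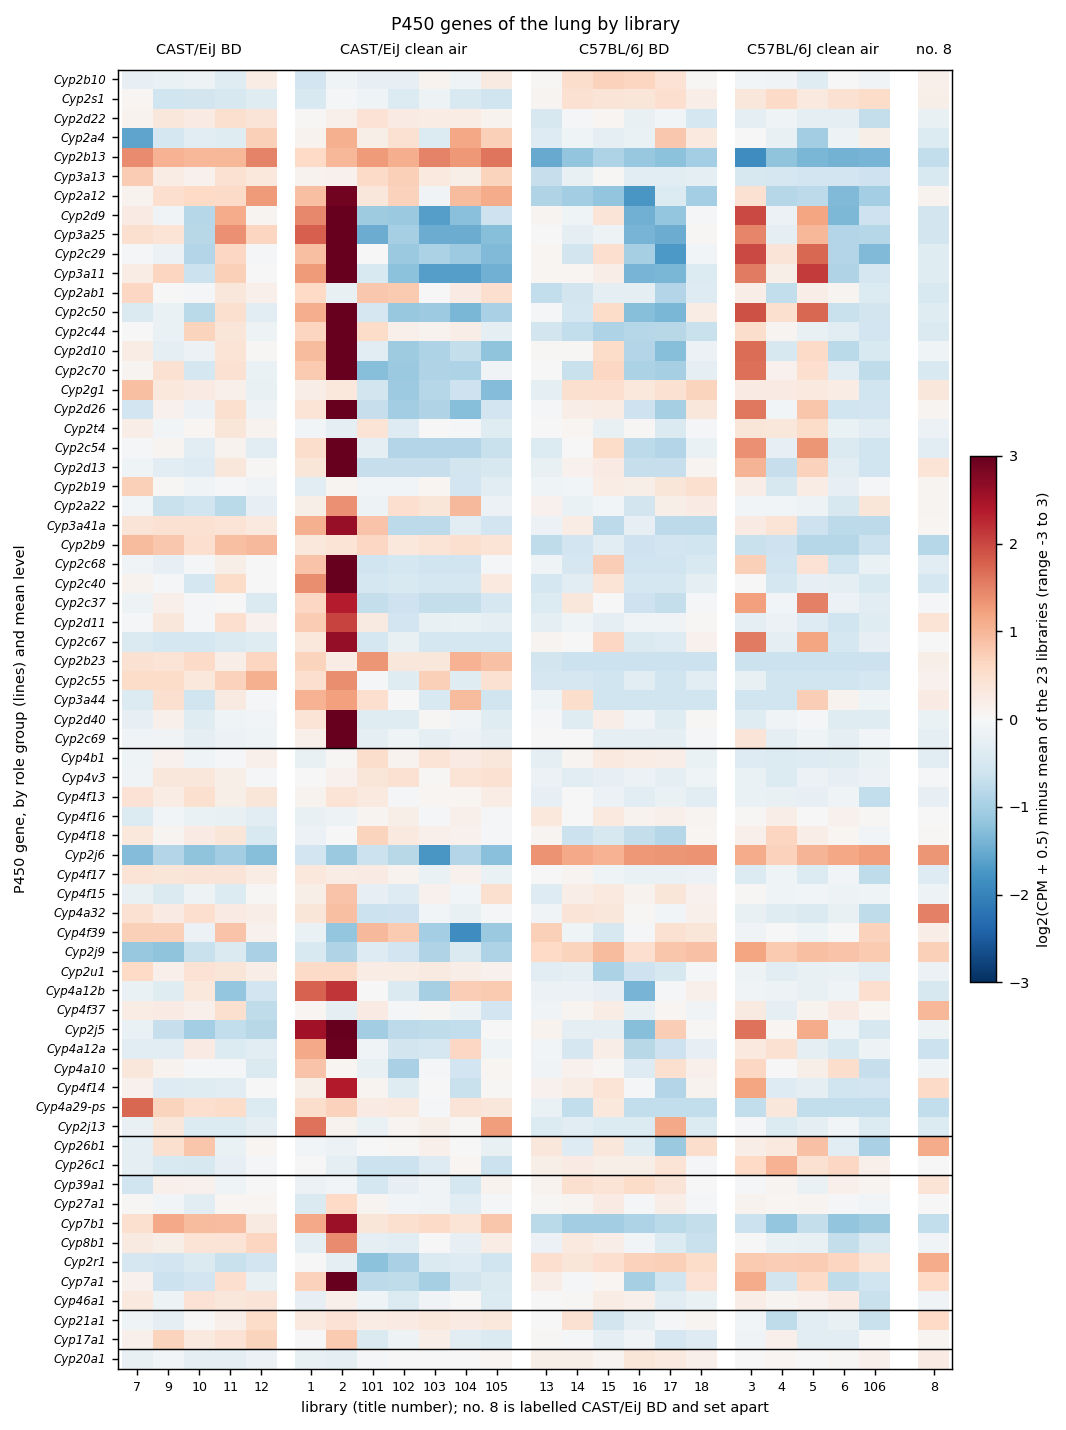
Each row is a P450 gene and each column a library, with colour for log2(CPM + 0.5) minus the gene's mean over the 23 libraries of the fit. Cyp2b13 and Cyp7b1 are high and Cyp2j6, Cyp2j9 and Cyp2r1 low in the CAST/EiJ libraries, library number 8 has the C57BL/6J pattern for these genes, and CAST/EiJ clean-air number 2 is high for a block of 2c, 2d and 3a genes.

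To determine which P450 genes responded to BD in C57BL/6J, the 6 BD libraries were compared with the 5 clean-air libraries. Cyp2b10 and Cyp4b1, the 2 most counted genes, rose by 1.46-fold and 1.33-fold, and Cyp4f18, which oxidises leukotriene B4 in mouse neutrophils, fell by 1.52-fold. The other 58 tested genes did not pass. An adjusted p (edgeR quasi-likelihood test, Benjamini-Hochberg over 17377 genes) under 0.05 is called a change here. The 3 called of 61 (4.92%) stand beside 10.7% of all genes tested (4.2% higher and 6.49% lower). The median log2 fold change of the 61 was -0.03, beside -0.00236 for all genes. Without CAST/EiJ clean-air number 2, which enters the estimate of the spread, 5 were called, Cyp4a32 (higher) and Cyp2c44 (lower, -0.96, adjusted p = 0.0225) being added.

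Cyp2b10 was counted at 438 CPM at the lowest, 597 at the median and 693 at the highest in C57BL/6J BD, against 333, 398, 402, 403 and 427 CPM in C57BL/6J clean air. Every BD library lay above every clean-air library. The means were 573 ± 109.99 CPM (SD, n = 6) under BD and 393 ± 35.5 CPM (SD, n = 5) in clean air, a log2 fold change of 0.55 ± 0.14 (SE; edgeR adjusted p = 0.0134). The call held in each of 31 alternative fits (adjusted p 0.00225–0.0452). Cyp2b10 is the classical target of the nuclear receptor CAR in mouse liver. Nr1i3, which encodes CAR, did not pass under BD in C57BL/6J (log2 fold change 0.21, edgeR adjusted p = 0.78). Its mRNA level does not measure the activity of CAR, and the part of CAR in the Cyp2b10 values was not tested.

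Cyp4b1 was counted at 631 CPM at the lowest, 850.2 at the median and 948 at the highest in C57BL/6J BD, against 579, 588, 594, 599 and 676 CPM in clean air. The groups overlapped, since 1 clean-air library at 676 lay above the 2 lowest BD libraries. The log2 fold change was 0.41 ± 0.12 (SE; means 809 ± 131 CPM under BD and 607 ± 38.99 in clean air, SD, n = 6 and 5; edgeR adjusted p = 0.024). The call was lost on leaving out any 1 of BD replicates 3, 4 and 5 or of clean-air replicates 2, 3 and 4 (adjusted p 0.0548–0.0685), and the log2 fold change stayed at 0.38 or more. Without title numbers over 100 it was 0.46 (adjusted p = 0.00804). The 10 alveolar type 2 markers had 2 higher (Lyz2 and Sftpc) and 1 lower (Etv5) in this comparison, with the sums given above, and the 10 club cell markers 1 higher (Aldh1a1). Their part in the Cyp4b1 and Cyp2b10 values was not tested.

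Cyp4f18 was counted at 7.65 CPM at the lowest, 9.53 at the median and 15.1 at the highest in C57BL/6J BD, against 13.5, 14.9, 16.1, 16.4 and 22.5 CPM in clean air. The 4 lowest BD libraries lay under every clean-air library and the other 2 within their range. The log2 fold change was -0.61 ± 0.19 (SE; means 10.9 ± 3.31 CPM under BD and 16.7 ± 3.46 in clean air, SD, n = 6 and 5; edgeR adjusted p = 0.042). It was lost in 10 of 31 alternatives, 8 of them the loss of any 1 of BD replicates 2 to 5 or clean-air replicates 2 to 5, with the highest adjusted p (0.16) without clean-air replicate 3. Markers of some leukocytes, but not of all, were lower in the same comparison. Of 10 B cell markers 9 were lower under BD, with summed CPM of 75.9–191 under BD against 203–403 in clean air. Of 9 tested T and NK cell markers 3 were lower, with sums of 37.9–64.2 CPM under BD against 70.2–89.96 in clean air, and of 9 tested neutrophil markers 1 was lower (Mmp9), with sums of 24.9–115 CPM under BD against 58.2–90.2 in clean air. Of 10 dendritic cell markers 3 were lower, with sums of 166–230 CPM under BD against 219–256 in clean air. Alveolar macrophage markers went the other way. Of 10, 1 was higher (Marco) and none lower, with sums of 1025–1336 CPM under BD against 804–1031 in clean air. No marker of these lists was at 0 in all libraries, and their part in the Cyp4f18 value was not tested.

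Genes that missed the threshold in C57BL/6J included Cyp4a32, of the fatty acid hydroxylase subfamily 4a. It was counted at 6.95 CPM at the lowest, 8.16 at the median and 9.97 at the highest under BD against 4.25, 5.47, 5.79, 6.37 and 6.41 CPM in clean air. The groups did not overlap, but the test did not pass (log2 fold change 0.56 ± 0.21 (SE), edgeR adjusted p = 0.0971); it passed without CAST/EiJ clean-air number 2 (adjusted p = 0.0234). Of the 61 genes, 2 did not overlap between BD and clean air in C57BL/6J, Cyp2b10 and Cyp4a32, beside 7.92% of all genes. Cyp39a1 averaged 44.3 ± 6.39 CPM under BD (SD, n = 6) and 35.6 ± 3.302 CPM in clean air (SD, n = 5; edgeR adjusted p = 0.125). For Cyp2d22 the means were 50.7 ± 8.49 CPM under BD and 46.3 ± 6.67 CPM in clean air (adjusted p = 0.514), for Cyp2s1 77.5 ± 8.61 CPM under BD and 83.3 ± 6.99 in clean air (adjusted p = 0.645), and for Cyp4v3 65.4 ± 3.41 CPM under BD and 64.5 ± 4.05 in clean air (adjusted p = 0.941).

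**Figure D2:**
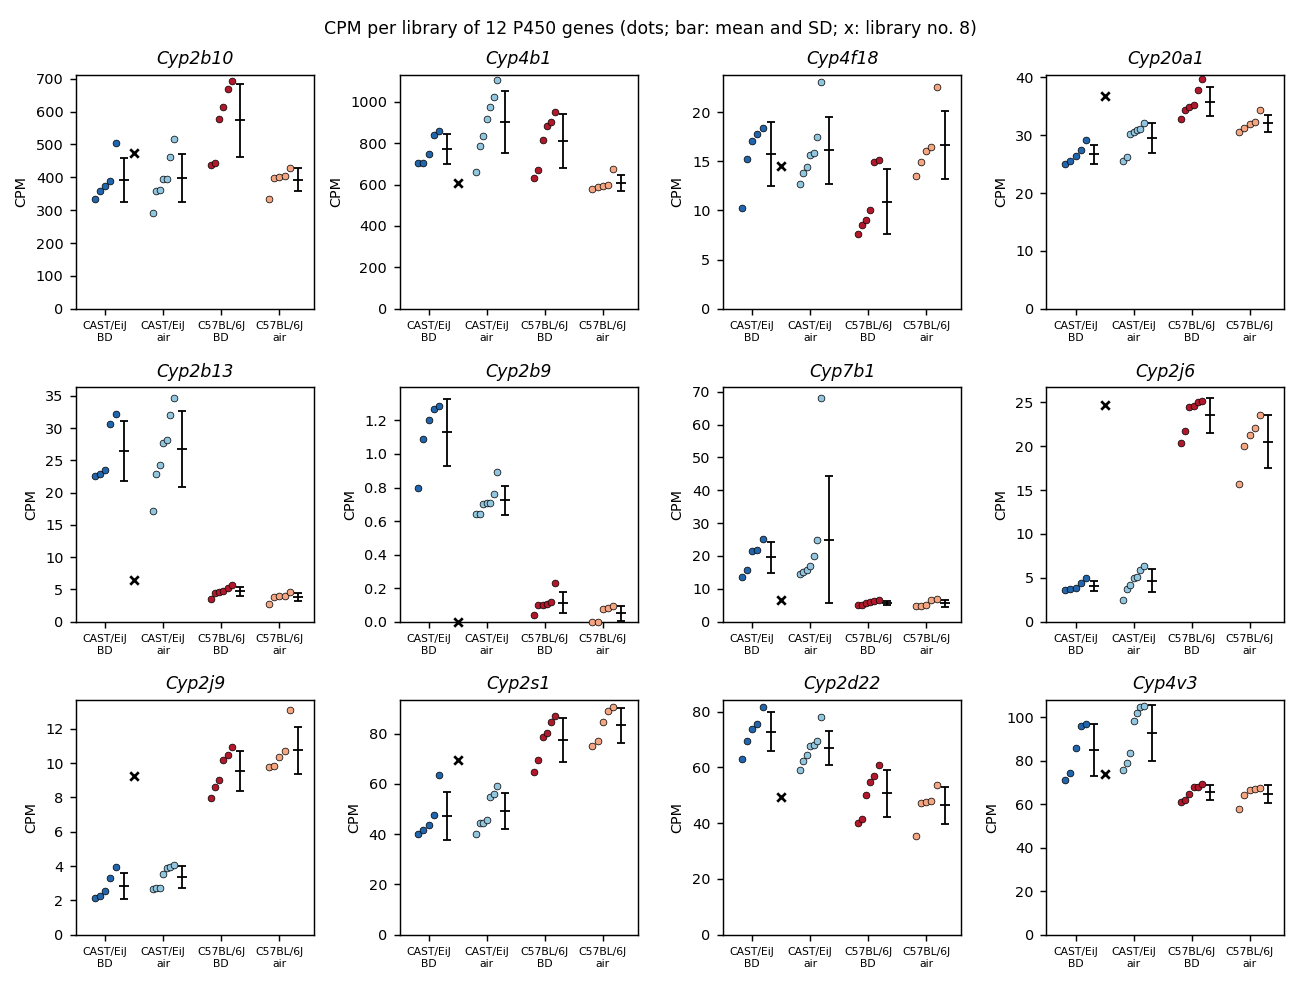
CPM per library (dots, with the mean and SD beside them) of 12 P450 genes in the 4 groups, with library number 8 as a cross beside CAST/EiJ BD. Cyp2b10 lies higher in C57BL/6J under BD than in clean air in every library, whereas Cyp2b13, Cyp7b1, Cyp2j6 and Cyp2j9 separate by strain with no overlap.

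In CAST/EiJ the 5 BD libraries were compared with the 7 clean-air libraries. A single gene of the 61, Cyp2a22 of the 2a subfamily, passed and was lower under BD (1.64% of the 61, beside 7.22% of all genes, 3.86% higher and 3.37% lower). It was counted at 0.07999, 0.136, 0.1702, 0.348 and 0.446 CPM under BD, against 0.391 CPM at the lowest, 0.807 at the median and 2.12 at the highest in clean air. These are a few counts a library, and the groups overlapped. Cyp2a22 reached the level of 0.5 CPM only in CAST/EiJ clean air, so its fall under BD is in part set by the choice. The log2 fold change was -1.93 ± 0.45 (SE; edgeR adjusted p = 0.0202). It was -1.63 without clean-air number 2 (adjusted p = 0.018) and -0.97 where the number series was also a covariate (adjusted p = 0.799). None of the 61 genes was without overlap between BD and clean air, beside 2.07% of all genes. The median log2 fold change of the 61 was -0.22, beside -0.02 for all genes, but without clean-air number 2 the median turned to 0.12 over 56 tested genes (-0.17 over the same 56 with it), 23 of them negative.

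Neither gene that rose in C57BL/6J passed in CAST/EiJ. Cyp2b10 was counted at 333, 359.6, 374, 389 and 505 CPM under BD, against 290.1 CPM at the lowest, 394 at the median and 516 at the highest in clean air. The BD range lay inside the clean-air range (log2 fold change -0.02 ± 0.13 (SE), edgeR adjusted p = 0.954). Cyp4b1 was counted at 704, 706, 749.6, 840 and 859.7 CPM under BD, against 663 CPM at the lowest, 918 at the median and 1104 at the highest in clean air (log2 fold change -0.22 ± 0.11 (SE), adjusted p = 0.196). The clean-air libraries with numbers 1 and 2 stood at 663 and 787 CPM and the 5 with numbers over 100 at 835–1104 CPM. Without numbers over 100 the log2 fold change was 0.09 (adjusted p = 0.841), and with the number series as a covariate 0.03 (adjusted p = 0.973). Club cell markers moved in the same comparison. Of 10, 6 were lower under BD in CAST/EiJ (Scgb3a2, Scgb1a1, Cyp2f2, Cckar, Scgb3a1 and Bpifa1), with the sums given above, and their part in the Cyp4b1 value was not tested. Cyp4f18 was counted at 10.3, 15.2, 17.02, 17.8 and 18.4 CPM under BD and at 12.7 CPM at the lowest, 15.6 at the median and 23.04 at the highest in clean air (adjusted p = 0.926).

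The count of called genes in CAST/EiJ changed with the libraries used. It was 3 without CAST/EiJ clean-air replicate 6 (number 1) or C57BL/6J clean-air replicate 1, 2 without CAST/EiJ clean-air replicate 3 or CAST/EiJ BD replicate 3, and 6 without clean-air number 2. The 6 were Cyp2a22 and Cyp4f16 (lower under BD) and Cyp2g1, an olfactory P450, Cyp46a1, the cholesterol 24-hydroxylase known from brain, Cyp4a32 and Cyp8b1, the sterol 12α-hydroxylase of bile acid synthesis (higher under BD). Their log2 fold changes without it were -1.63 and -0.27, and 1.40, 0.92, 0.55 and 0.59 (edgeR adjusted p 0.0174–0.045). In the fit of all 23 libraries Cyp2g1 had a log2 fold change of 1.10 ± 0.37 (SE; adjusted p = 0.0649), from 1.04, 1.52, 1.65, 1.77 and 2.88 CPM under BD and 0.235 CPM at the lowest, 0.674 at the median and 1.77 at the highest in clean air. Numbers 1 and 2 had 1.58 and 1.77 CPM of it, within the BD values, and numbers over 100 had 0.235–0.73 CPM. Without numbers over 100 the log2 fold change of Cyp2g1 was 0.08 (adjusted p = 0.955), and with the number series as a covariate 0.20 (adjusted p = 0.904). Cyp4a32 and Cyp8b1 turned negative in those fits (-0.32 and -0.42 without numbers over 100, -0.20 and -0.23 with the covariate), and none of these nor Cyp46a1 or Cyp4f16 passed in either (adjusted p 0.393–0.955). Leaving out title numbers over 100 left numbers 1 and 2 as the CAST/EiJ clean-air libraries. Then 23 of 65 tested genes passed and all were lower under BD, 14 of them among the 16 liver-type genes described below. The share of all genes called in that fit is not given here.

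**Figure D3:**
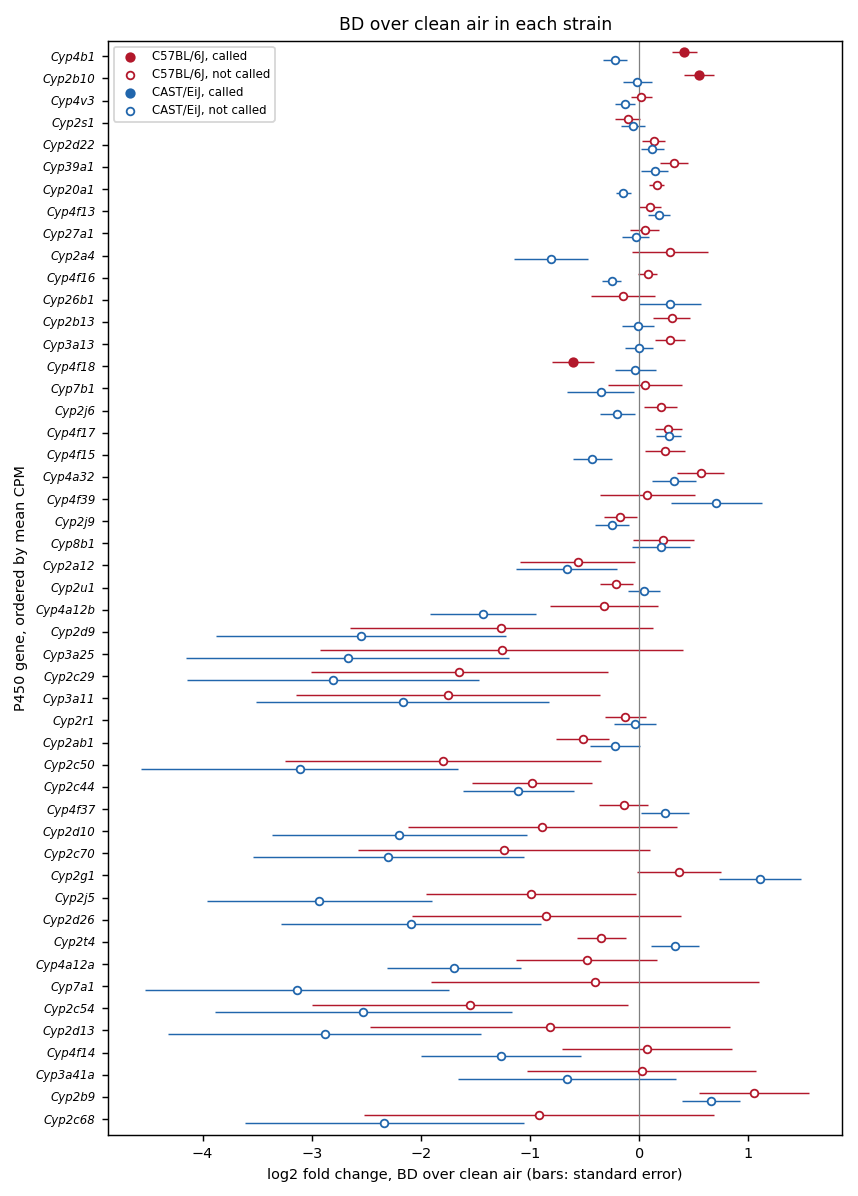
Log2 fold change of BD over clean air, with its standard error, in C57BL/6J and CAST/EiJ for the tested P450 genes with at least 1 CPM in some group, ordered by mean CPM. Filled points passed an adjusted p of 0.05, and the wide bars belong mostly to 2c, 2d and 3a genes and Cyp7a1, which were high in CAST/EiJ clean-air number 2.

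The difference between the responses was tested as the BD ratio in CAST/EiJ over that in C57BL/6J. Cyp4b1 and Cyp20a1 passed and both were negative (3.28% of 61 genes, beside 9.44% of all genes, 5.62% higher and 3.82% lower). For Cyp4b1 the log2 difference was -0.64 ± 0.16 (SE; edgeR adjusted p = 0.0237), from -0.22 in CAST/EiJ and 0.41 in C57BL/6J. Within the numbers up to 100 it was -0.37 (adjusted p = 0.24), with the number series as a covariate -0.45 (adjusted p = 0.114), and it was also lost without C57BL/6J clean-air replicates 3 or 4 or CAST/EiJ BD replicate 1 (adjusted p 0.0503–0.0573). Cyp20a1, an orphan P450 of no settled substrate, was counted at 24.96, 25.6, 26.5, 27.4 and 29.1 CPM in CAST/EiJ BD and 25.5 CPM at the lowest, 30.6 at the median and 32.1 at the highest in CAST/EiJ clean air. In C57BL/6J it was counted at 32.9 CPM at the lowest, 35.04 at the median and 39.7 at the highest under BD and 30.5, 31.2, 31.9, 32.2 and 34.4 CPM in clean air. The log2 difference of the responses was -0.30 ± 0.0955 (SE; adjusted p = 0.0468), and the call was lost in 22 of 30 alternatives (adjusted p up to 0.467). It was -0.14 without title numbers over 100 (adjusted p = 0.467) and -0.19 with the number series as a covariate (adjusted p = 0.212). In CAST/EiJ clean air, numbers 1 and 2 had 26.2 and 25.5 CPM of Cyp20a1 and numbers over 100 had 30.2–32.1 CPM. Under BD Cyp20a1 was lower in CAST/EiJ than in C57BL/6J with no overlap (log2 difference -0.42, edgeR adjusted p = 2.18e-05). That strain call held in each of 31 alternatives. For Cyp2b10 the difference was -0.56 ± 0.19 (SE) and did not pass (adjusted p = 0.0628).

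Strain differences were called for more of the P450 genes than responses to BD. In clean air 24 of 61 genes (39.3%) differed between CAST/EiJ and C57BL/6J, 19 higher and 5 lower in CAST/EiJ, beside 60.4% of all genes (29.4% higher and 31% lower). Under BD 23 of 61 (37.7%) differed, 15 higher and 8 lower, beside 42.7% of all genes (20.4% higher and 22.3% lower). The strain comparisons had 18 genes in common, 75% of the clean-air and 78.3% of the BD calls, 14 higher and 4 lower in CAST/EiJ in both. Groups without overlap numbered 15 of 61 in clean air (24.6%, beside 31.9% of all genes) and 21 under BD (34.4%, beside 29.4%). In the fit of all 23 libraries the share called was below that of all genes in clean air (39.3% against 60.4%). Under BD it was near that of all genes (37.7% against 42.7%). Some calls are of genes, named above, that reached the level in 1 strain alone. The split into higher and lower is thus in part set by the choice. The median log2 difference was 0.77 in clean air and 0.31 under BD, beside -0.000496 and -0.00399 for all genes. Without CAST/EiJ clean-air number 2 the clean-air median was -0.02 over 56 tested genes (0.63 over the same 56 with it), 28 of them negative. Within title numbers up to 100, CAST/EiJ clean air is numbers 1 and 2. The clean-air count was then 41 of 65 tested, 14 of them among the liver-type genes below. With the number series as a covariate it was 40 of 61. The shares of all genes called in these fits are not given here, so these counts are not read as a trait of the P450 genes. Without number 2, Cyp2d26 (-1.94, adjusted p = 0.0296, against 1.33 with it) and Cyp2g1 (-1.07, adjusted p = 0.0153) were called lower in CAST/EiJ in clean air. Cell type markers also differed between the strains. Alveolar macrophage markers summed to 2607–4963 CPM in CAST/EiJ BD, against 1025–1336 in C57BL/6J BD, and to 2083–4316 in CAST/EiJ clean air, against 804–1031 in C57BL/6J clean air. Of 10, 5 were higher and 3 lower in CAST/EiJ under BD, and 6 higher and 2 lower in clean air. Under BD 7 of 10 club cell markers were lower in CAST/EiJ and 1 (Hp) higher (median -0.91), with sums of 6666–10278 CPM in CAST/EiJ BD against 10290.2–14133 in C57BL/6J BD. Likewise 7 of 10 ciliated cell markers were lower and 1 (Rsph1) higher (median -0.78), with sums of 402–569 CPM in CAST/EiJ BD against 596–954 in C57BL/6J BD. In clean air 2 club cell and 5 ciliated cell markers were lower, and 1 and 3 higher. For smooth muscle markers the clean-air sums were 2333–3924 in CAST/EiJ and 1469–1675 in C57BL/6J, and 9 of 10 were higher. Of 10 B cell markers all were lower in CAST/EiJ in clean air and 1 under BD, and of 9 T and NK markers 8 were lower in either air. Their part in the P450 values was not tested.

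Among the 31 tested genes of the xenobiotic subfamilies, 11 were higher and 1 lower in CAST/EiJ in clean air. That is 38.7% called, beside 60.4% of all genes (29.4% higher and 31% lower). Under BD 8 were higher and 2 lower (32.3%, beside 42.7% of all genes). Without clean-air number 2 the clean-air calls of Cyp2a22 and Cyp2c44 were lost and Cyp2d11 was not tested. Cyp2d26 and Cyp2g1 were then called lower in CAST/EiJ. Cyp2b13, a steroid-hydroxylating 2b enzyme known from female mouse liver, was counted at 22.6, 22.9, 23.5, 30.6 and 32.2 CPM in CAST/EiJ BD, against 3.57 CPM at the lowest, 4.705 at the median and 5.67 at the highest in C57BL/6J BD. In clean air it was counted at 17.1 CPM at the lowest, 27.7 at the median and 34.7 at the highest in CAST/EiJ, against 2.7, 3.88, 3.91, 4.03 and 4.59 CPM in C57BL/6J. The lowest CAST/EiJ library lay well above the highest C57BL/6J library. The log2 differences were 2.49 ± 0.16 under BD and 2.80 ± 0.17 in clean air (SE; edgeR adjusted p = 9.93e-12 and 2.80e-12). Cyp2b9, whose 120 upstream bases are those of Cyp2b13, was counted at 0.794, 1.09, 1.2, 1.27 and 1.29 CPM in CAST/EiJ BD and at 0.03798–0.2299 CPM in C57BL/6J BD (log2 difference 3.36 ± 0.33 (SE), adjusted p = 1.64e-08). In clean air it ranged over 0.643–0.892 CPM in CAST/EiJ and 0–0.0919 CPM in C57BL/6J, with 2 C57BL/6J libraries at 0. Cyp2b23 was at 0 in all 5 C57BL/6J clean-air libraries and averaged 0.815 CPM in CAST/EiJ clean air, at least 4.61-fold higher than the floor of 3 counts per library (0.177 CPM).

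The neighbouring Cyp2b10 did not follow these 2b genes. It averaged 397 ± 73.2 CPM in CAST/EiJ clean air (SD, n = 7) and 393 ± 35.5 CPM in C57BL/6J clean air (SD, n = 5; edgeR adjusted p = 0.93), and was lower in CAST/EiJ under BD, with means of 392 ± 66.4 CPM in CAST/EiJ BD (SD, n = 5) and 573 ± 109.99 CPM in C57BL/6J BD (SD, n = 6; log2 difference -0.55 ± 0.14 (SE), adjusted p = 0.00258). The highest CAST/EiJ library, at 505 CPM, lay within the C57BL/6J range. The part of the club cell markers, lower in the same comparison, was not tested. How reads that match several of these similar genes were counted is not given in the sources used here, so the split among 2b genes, between Cyp2a4 and its near-identical neighbour Cyp2a5, and between Cyp4a12a and Cyp4a12b is uncertain. The build named in the submitters' processing notes is that of C57BL/6J, and differences in transcript level and in alignment cannot be told apart for any gene.

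Cyp2a12, which hydroxylates testosterone and bile acids, was counted at 3.15, 4.36, 4.64, 4.71 and 7.83 CPM in CAST/EiJ BD, against 0.516 CPM at the lowest, 1.17 at the median and 2.09 at the highest in C57BL/6J BD, with no overlap (log2 difference 2.04 ± 0.50 (SE), edgeR adjusted p = 0.00229). In clean air it was counted at 2.67 CPM at the lowest, 5.9 at the median and 24.9 at the highest in CAST/EiJ, against 0.872, 1.196, 1.38, 1.497 and 4.199 CPM in C57BL/6J (2.14 ± 0.51, adjusted p = 0.00107). The highest value was that of number 2, and 1 C57BL/6J library (number 3) lay within the CAST/EiJ range. Without number 2 the clean-air difference was 1.53 (adjusted p = 0.00101). Cyp2d22 was counted at 63.1, 69.6, 73.7, 75.8 and 81.8 CPM in CAST/EiJ BD, against 40.05 CPM at the lowest, 52.3 at the median and 61 at the highest in C57BL/6J BD, and averaged 67.1 ± 6.06 and 46.3 ± 6.67 CPM in CAST/EiJ and C57BL/6J clean air (SD, n = 7 and 5). It was higher in CAST/EiJ under both (0.52 under BD and 0.54 in clean air, adjusted p = 0.000336 and 0.000141), but within numbers up to 100 the clean-air difference was 0.33 (adjusted p = 0.0649). Cyp2s1 went the other way. It was counted at 40.2, 41.5, 43.6, 47.5 and 63.5 CPM in CAST/EiJ BD, against 64.9 CPM at the lowest, 79.4 at the median and 87.1 at the highest in C57BL/6J BD, and at 40.03 CPM at the lowest, 45.5 at the median and 59.1 at the highest in CAST/EiJ clean air, against 75.2, 76.9, 84.7, 89.02 and 90.7 CPM in C57BL/6J clean air. The strains did not overlap in either air (-0.71 ± 0.12 under BD and -0.76 ± 0.11 in clean air (SE), adjusted p = 2.23e-05 and 2.85e-06). The part of the club and ciliated cell markers in the Cyp2s1 value under BD was not tested.

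Other xenobiotic genes higher in CAST/EiJ in both airs were Cyp3a13, at 19.4 CPM in CAST/EiJ against 11.96 in C57BL/6J under BD and 19.5 CPM in CAST/EiJ against 9.84 in C57BL/6J in clean air, Cyp2ab1 (3.01 CPM in CAST/EiJ against 1.62 in C57BL/6J under BD, 3.52 CPM in CAST/EiJ against 2.31 in C57BL/6J in clean air) and Cyp2c55 (0.702 CPM in CAST/EiJ against 0.0454 in C57BL/6J under BD, 0.542 CPM in CAST/EiJ against 0.0353 in C57BL/6J in clean air), all as means. Cyp3a13 oxidises drugs and steroids. The clean-air call of Cyp2ab1 (adjusted p = 0.0286) was lost within numbers up to 100 (0.30, adjusted p = 0.483) and without C57BL/6J clean-air replicate 1 or 3 or CAST/EiJ clean-air replicate 1 or 2. Cyp2c44, an arachidonic acid epoxygenase, Cyp2a22 and Cyp2d11 were called in clean air and not under BD. For Cyp2c44 the clean-air log2 difference was 1.43 (edgeR adjusted p = 0.022), from 1.25 CPM at the lowest, 1.93 at the median and 16.7 at the highest in CAST/EiJ and 0.9303, 1.18, 1.32, 1.75 and 2.55 CPM in C57BL/6J. It was 0.45 without number 2 (adjusted p = 0.13), and the call was also lost without C57BL/6J clean-air replicate 1 or 5. Under BD Cyp2c44 did not overlap, at 1.36, 1.41, 1.61, 2.24 and 2.89 CPM in CAST/EiJ against 0.613–0.949 CPM in C57BL/6J, and missed the threshold (adjusted p = 0.0545). The Cyp2a22 clean-air call was lost in 15 of 31 alternatives, and the difference was 0.75 without number 2 (adjusted p = 0.114). Cyp2d11 averaged 0.788 CPM in CAST/EiJ and 0.189 CPM in C57BL/6J clean air (adjusted p = 0.011). Number 2 had 3.11 CPM of it, against at most 0.993 CPM in the rest of its group, and without number 2 Cyp2d11 did not pass the filter and was not tested.

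Of 19 tested fatty acid and eicosanoid genes, 6 were higher and 2 lower in CAST/EiJ in clean air (42.1%, beside 60.4% of all genes). Under BD 6 were higher and 3 lower (47.4%, beside 42.7% of all genes). Cyp2j6 and Cyp2j9, of the subfamily that oxidises arachidonic and linoleic acid, were lower in CAST/EiJ in both airs. Cyp2j6 was counted at 3.57, 3.68, 3.86, 4.4 and 4.97 CPM in CAST/EiJ BD, against 20.4 CPM at the lowest, 24.5 at the median and 25.1 at the highest in C57BL/6J BD, and at 2.52 CPM at the lowest, 4.94 at the median and 6.31 at the highest in CAST/EiJ clean air, against 15.7, 19.98, 21.2, 22.1 and 23.6 CPM in C57BL/6J clean air. The strains lay far apart in both airs (log2 differences -2.53 ± 0.17 under BD and -2.13 ± 0.15 in clean air (SE), edgeR adjusted p = 1.56e-11 and 4.90e-11). Library number 8 had 24.7 CPM, within the C57BL/6J BD range, and 69.5 CPM of Cyp2s1, likewise. Cyp2j9 was counted at 2.11, 2.23, 2.54, 3.29 and 3.92 CPM in CAST/EiJ BD, against 7.99 CPM at the lowest, 9.59 at the median and 10.96 at the highest in C57BL/6J BD, and at 2.66 CPM at the lowest, 3.54 at the median and 4.06 at the highest in CAST/EiJ clean air, against 9.76, 9.83, 10.4, 10.7 and 13.1 CPM in C57BL/6J clean air. It too separated with no overlap (-1.75 ± 0.16 under BD and -1.68 ± 0.15 in clean air (SE), adjusted p = 4.51e-09 and 2.10e-09).

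Cyp4v3 was counted at 71.2, 74.2, 85.7, 96.05 and 96.7 CPM in CAST/EiJ BD, against 61.1 CPM at the lowest, 66.2 at the median and 69.4 at the highest in C57BL/6J BD. In clean air it was counted at 75.5 CPM at the lowest, 98 at the median and 105.2 at the highest in CAST/EiJ, against 57.6, 64.1, 66.4, 66.98 and 67.4 CPM in C57BL/6J. All CAST/EiJ libraries lay above all C57BL/6J libraries in each air (0.37 ± 0.0925 under BD and 0.52 ± 0.0911 in clean air (SE), edgeR adjusted p = 0.00215 and 3.45e-05). Cyp4b1 was higher in CAST/EiJ in clean air (0.57 ± 0.11 (SE), adjusted p = 0.00016), though 1 library on each side overlapped, and not under BD (-0.07 ± 0.12 (SE), adjusted p = 0.679). Within numbers up to 100 its clean-air difference was 0.30 (adjusted p = 0.0925). Of the family 4f fatty acid hydroxylases, Cyp4f13 averaged 35.05 CPM in CAST/EiJ against 23.9 in C57BL/6J under BD and 30.97 CPM in CAST/EiJ against 22.4 in C57BL/6J in clean air, and Cyp4f17 12.2 CPM in CAST/EiJ against 8.76 in C57BL/6J under BD and 10.1 CPM in CAST/EiJ against 7.32 in C57BL/6J in clean air, CAST/EiJ being higher each time (adjusted p 8.44e-05–0.0021). Cyp4f16 was lower in CAST/EiJ under BD, at 14.1 CPM in CAST/EiJ against 18.8 in C57BL/6J (adjusted p = 0.000361), and Cyp4f18 higher, at 15.8 CPM in CAST/EiJ against 10.9 in C57BL/6J (adjusted p = 0.0271), a call lost in 6 of 31 alternatives, each leaving out 1 of C57BL/6J BD replicates 2, 4 and 5 or CAST/EiJ BD replicates 1, 2 and 4 (adjusted p 0.0544–0.0731). Of 9 neutrophil markers 6 were higher in CAST/EiJ under BD, with summed CPM of 77.5–238 in CAST/EiJ BD and 24.9–115 in C57BL/6J BD, and their part in the Cyp4f18 difference was not tested. Cyp2u1, which hydroxylates long-chain fatty acids, averaged 4.92 CPM in CAST/EiJ against 2.63 in C57BL/6J under BD and 4.78 CPM in CAST/EiJ against 3.06 in C57BL/6J in clean air (adjusted p = 3.15e-05 and 0.00068). The pseudogene Cyp4a29-ps was called higher in both, from means under 1 CPM. Its clean-air call was lost without C57BL/6J clean-air replicate 1, 4 or 5 (adjusted p 0.0535–0.066) and without title numbers over 100 (0.128), and its BD call without CAST/EiJ BD replicate 4 (adjusted p = 0.05).

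Of the 7 sterol, bile acid and vitamin D genes, Cyp7b1 was higher and Cyp2r1 lower in CAST/EiJ in both airs, and Cyp39a1 lower under BD. Cyp7b1, the oxysterol 7α-hydroxylase that removes side-chain oxysterols, was counted at 13.6, 15.8, 21.5, 21.9 and 25.1 CPM in CAST/EiJ BD, against 5.101 CPM at the lowest, 5.85 at the median and 6.54 at the highest in C57BL/6J BD. In clean air it was counted at 14.4 CPM at the lowest, 16.8 at the median and 68.1 at the highest in CAST/EiJ, against 4.62, 4.69, 5.02, 6.57 and 6.97 CPM in C57BL/6J. No libraries overlapped (1.75 ± 0.33 under BD and 2.16 ± 0.34 in clean air (SE), edgeR adjusted p = 0.000153 and 1.25e-05). The clean-air maximum was number 2, without which the difference was 1.70 (adjusted p = 1.78e-08). Cyp2r1, the vitamin D 25-hydroxylase, was counted at 1.32, 1.43, 1.43, 1.54 and 1.65 CPM in CAST/EiJ BD, against 3.18 CPM at the lowest, 3.66 at the median and 4.22 at the highest in C57BL/6J BD, again with no overlap (log2 difference -1.34 ± 0.20 (SE), adjusted p = 6.50e-06), and its clean-air log2 difference was -1.43 (adjusted p = 7.82e-07). Cyp39a1 was counted at 23.2, 32.1, 34.7, 38.1 and 39.01 CPM in CAST/EiJ BD, against 35.3 CPM at the lowest, 46.2 at the median and 51.2 at the highest in C57BL/6J BD, where ranges overlapped (-0.41 ± 0.13 (SE), adjusted p = 0.0129; 0.0704 with number 8 kept as labelled), and averaged 30.3 ± 4.89 and 35.6 ± 3.302 CPM in CAST/EiJ and C57BL/6J clean air (adjusted p = 0.11). Cyp27a1, the mitochondrial sterol 27-hydroxylase, averaged 24.5 ± 2.79 CPM in CAST/EiJ BD, 25.2 ± 6.61 in CAST/EiJ clean air, 26.8 ± 2.52 in C57BL/6J BD and 25.9 ± 1.54 in C57BL/6J clean air (SD, n = 5, 7, 6 and 5), with no call in any comparison.

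Of the retinoic acid hydroxylases, Cyp26b1 averaged 18.4 ± 6.51 CPM in CAST/EiJ BD, 15.1 ± 1.44 in CAST/EiJ clean air, 15.4 ± 6.07 in C57BL/6J BD and 17.1 ± 7.94 in C57BL/6J clean air (SD, n = 5, 7, 6 and 5), and did not pass in any comparison. Its spread was wide except in CAST/EiJ clean air. Cyp26c1 was lower in CAST/EiJ in clean air, at 0.121 CPM in CAST/EiJ against 0.685 in C57BL/6J (-2.36 ± 0.54 (SE), edgeR adjusted p = 0.000576), with 3 of 7 CAST/EiJ libraries at 0. Of the steroid hormone enzymes, Cyp21a1, the steroid 21-hydroxylase, averaged 0.535 CPM in CAST/EiJ clean air and 0.143 CPM in C57BL/6J clean air (adjusted p = 0.00188; 0.0696 without title numbers over 100), and Cyp17a1 averaged 0.579, 0.292, 0.184 and 0.226 CPM in CAST/EiJ BD, CAST/EiJ clean air, C57BL/6J BD and C57BL/6J clean air, untested.

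**Figure D4:**
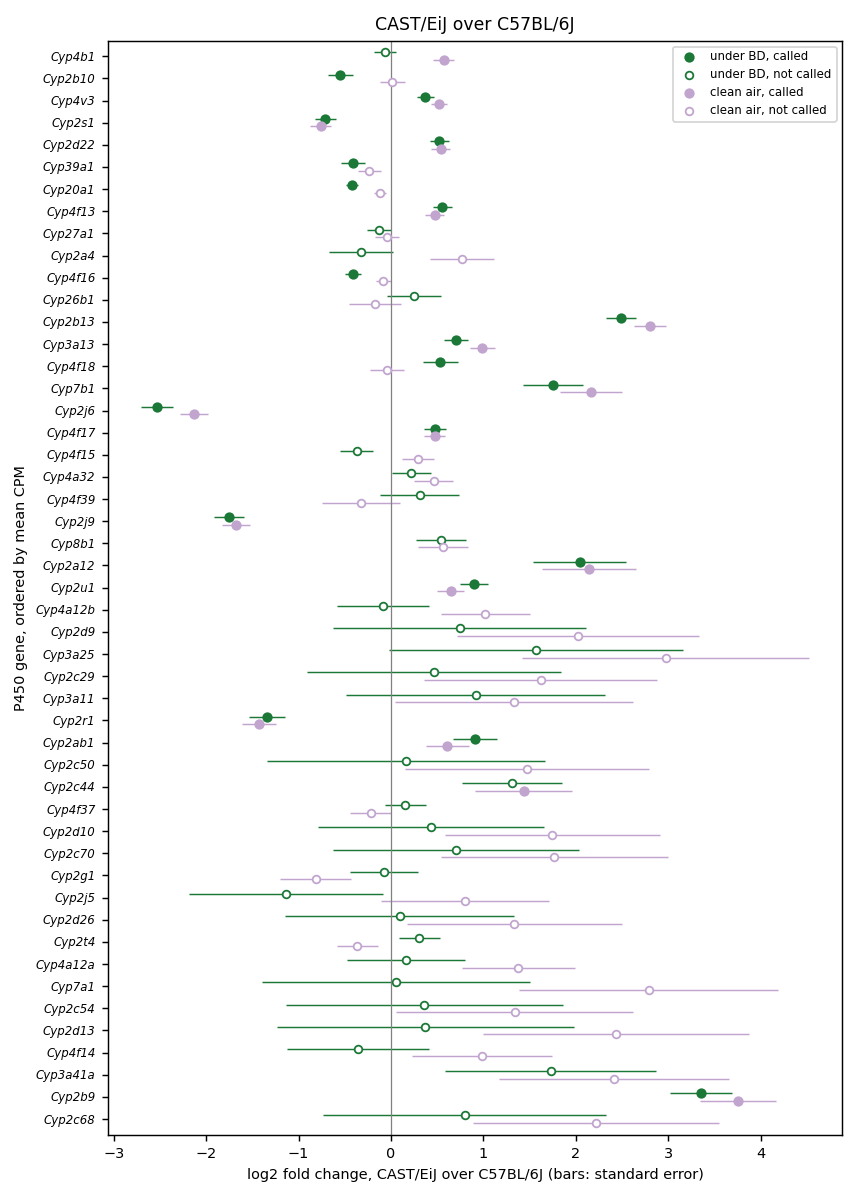
Log2 fold change of CAST/EiJ over C57BL/6J, with its standard error, under BD and in clean air for the tested P450 genes with at least 1 CPM in some group. Cyp2b13, Cyp2b9, Cyp7b1 and Cyp2a12 lie to the right and Cyp2j6, Cyp2j9, Cyp2r1 and Cyp2s1 to the left under both, whereas Cyp4b1 was called in clean air and Cyp2b10 under BD.

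A block of 16 genes known from liver stood highest in 1 library. In CAST/EiJ clean-air number 2 these genes reached 5.77 to 16.7 times the next highest of the other 22 libraries of the fit. They were 15 genes of the 2c, 2d and 3a subfamilies and Cyp7a1, the rate-limiting enzyme of bile acid synthesis. They were chosen after their values were seen, and get no test as a group. Cyp3a25, of the steroid- and drug-oxidising 3a subfamily, was counted at 67.8 CPM there and at 0.284, 1.36, 1.44, 1.698 and 3.12 CPM in CAST/EiJ BD, at up to 4.32 CPM in the other CAST/EiJ clean-air libraries, at 0–0.942 CPM in C57BL/6J BD and at 0.262–3.37 CPM in C57BL/6J clean air. For Cyp2d9, a testosterone 16α-hydroxylase of male mouse liver, the value was 58.4 CPM, against at most 4.21 CPM in the others of its group. Cyp2c29 had 50.7 CPM there, against at most 2.57 CPM, and Cyp7a1 26.7 CPM, against at most 1.11 CPM.

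Hepatocyte markers moved with these genes. The sum of 10 markers (Alb, Apoa1, Ttr and others, none at 0 in all libraries) was 2297 CPM in number 2, 184.8 CPM in number 1 and 6.70–15.5 CPM in the 5 CAST/EiJ clean-air libraries with numbers over 100. It was 34.3–126 CPM in CAST/EiJ BD, 16.5–169 in C57BL/6J BD and 38.8–511 in C57BL/6J clean air. The summed level of the 16 genes was 422.7 CPM in number 2, and the next highest were 42.9 and 30.7 CPM in C57BL/6J clean-air numbers 3 and 5, which also had the next highest marker sums (511 and 291 CPM). Their part in the P450 values was not tested. Of the 13 tested genes among the 16, only Cyp2c44 was called in any comparison of all 23 libraries. Without number 2, Cyp2c44 was also called for the strain difference under BD (1.32, edgeR adjusted p = 0.00023) and, as given above, for BD in C57BL/6J. Cyp2d26, also given above, was then called lower in CAST/EiJ in clean air. Of all 67 P450 genes, 34 had their highest value in number 2. Cyp2c40, Cyp2c68, Cyp2c69, Cyp2d13, Cyp2d40 and Cyp3a44 reached a group mean of 0.5 CPM only with number 2. Their high values there were thus set by the choice.

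**Figure D5:**
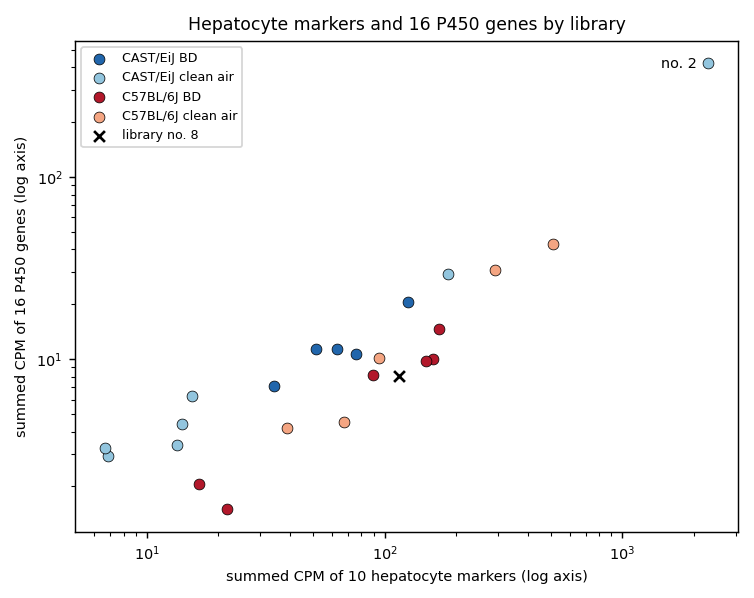
Summed CPM of the 16 liver-type P450 genes against summed CPM of 10 hepatocyte markers, 1 point per library, both axes logarithmic. CAST/EiJ clean-air number 2 lies at 422.7 and 2297 CPM, and the next highest library, C57BL/6J clean-air number 3, at 42.9 and 511 CPM.

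Genes that serve or control P450s were read from lists of their roles, with counts of called genes and the median beside that of all genes. Of 21 tested electron donor and haem genes, 4 were higher under BD in C57BL/6J and none lower, with a median log2 fold change of 0.15. Alas1, the first enzyme of haem synthesis, averaged 527 ± 80.3 CPM under BD (SD, n = 6) and 314 ± 32.2 CPM in clean air (SD, n = 5; edgeR adjusted p = 0.00809). The others were Cpox of haem synthesis (25.2 CPM under BD and 19.8 in clean air), Fdx1, the mitochondrial electron donor (35.5 CPM under BD and 25.8 in clean air), and Blvrb, a biliverdin reductase (23.1 CPM under BD and 14.9 in clean air). Por, the reductase of microsomal P450s, did not pass. In CAST/EiJ Hmox1, haem oxygenase 1, was the only member called, at 75.0 ± 20.2 CPM under BD (SD, n = 5) and 44.7 ± 6.99 CPM in clean air (SD, n = 7; adjusted p = 0.00989). Alas1 was among 5 haem and donor genes whose BD ratio was lower in CAST/EiJ than in C57BL/6J by the test of the difference.

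Of 25 tested nuclear receptors and factors, Keap1 was higher (61.9 CPM under BD and 48.7 in clean air) and Srebf2 lower (76.5 CPM under BD and 108 in clean air) in C57BL/6J, and Cebpa lower in CAST/EiJ (64.8 CPM under BD and 85.4 in clean air). Of 17 retinoid genes, Aldh1a1, which makes retinoic acid and is also on the club cell list, was higher in C57BL/6J, with means of 2234 ± 268 CPM in BD lungs (SD, n = 6) and 1339 ± 241 CPM in clean-air lungs (SD, n = 5; edgeR adjusted p = 0.00139), and the retinoic acid receptors Rara and Rarg were lower. Rdh11 was lower in CAST/EiJ. Of 23 prostaglandin and leukotriene genes, Ptgs1, cyclooxygenase 1, rose to 141 ± 14.4 CPM under BD in C57BL/6J, against 90.3 ± 6.65 CPM in clean air, Hpgd, which degrades prostaglandins, and Ptgis, prostacyclin synthase, also rose, and Ptges fell. Ptgr1 rose in CAST/EiJ. Of 12 sterol and oxysterol genes, Abca1, a cholesterol exporter, rose in both strains (442 CPM under BD against 316 in clean air in C57BL/6J, and 452 CPM under BD against 366 in clean air in CAST/EiJ), Hsd3b7 and Hsd11b1 rose and Stard4 fell in C57BL/6J, and Hsd11b2 rose in CAST/EiJ. No list is called particular from these counts, which stand beside 10.7% of all genes called in C57BL/6J and 7.22% in CAST/EiJ.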

How the data were processed

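Lung RNA was measured by RNA-seq in 24 libraries of 4 groups. Small RNA-seq (20 samples) and ATAC-seq (24 samples) of the same series were not used here. The authors deposited read counts per gene symbol. The submitters' processing notes name GSNAP and the mouse genome mm9. The counting tool, its settings for strand and shared reads, the annotation and the aligner version are not given in the sources used here. Both strains share that build. The P450 genes and the lists were chosen with earlier results of these data known.

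From the counts as deposited, CPM was computed with TMM library sizes over all 24 libraries. Of 23893 rows, 21 had no value in CAST/EiJ columns and were left out. In R 4.3.3, edgeR 4.0.16 fitted a mean per group in 23 libraries (robust quasi-likelihood test, filterByExpr, 17377 genes, Benjamini-Hochberg over all of them), without the library with title number 8. The standard error is the log2 fold change over the square root of F. The fit was tested on simulated counts. Over 61 pairs of libraries within a group, chi-square divided by its degrees of freedom was at least 5.02, so each counts as 1 sample. Alternatives were other size factors, no filter, DESeq2 1.42.0, the compared groups alone, number 8 kept, title numbers over 100 left out or as a covariate, a level of 1 CPM, and each library left out. Leaving CAST/EiJ clean-air number 2 out together with that covariate was chosen after seeing the data.

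Genes with full values are, in each comparison of a pair of groups, up to 6 called genes of at least 1 CPM by size of fold change, those called in the test of the difference, and the 6 most counted (15 genes). Other called genes have means. Cyp2c29, Cyp2d9, Cyp3a25, Cyp7a1, Cyp4a32, Cyp2g1, Cyp26b1 and Cyp27a1 were chosen after their values were seen. Chromosomes and promoters are from RefSeq (GRCm38.p6), matched by symbol. Depth gives counting error only, and differences within a few counts are not detectable for genes under 1 CPM.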

Additional observations from a re-analysis of the deposited data

Results flagged for a closer look

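Among the 15 genes named by rule, a library stood far from the rest of its group in 6 of 60 groups. Chance flags about 1 in 20 groups that are independent and chosen apart from their values. Neither held here, so the count was not weighed against that rate. The genes share libraries, and most were picked by called changes in these data. Cyp2c44 was picked through a clean-air call that was lost without number 2. Of the 6, 3 were the library of CAST/EiJ clean-air replicate 7 (title number 2). A further 4 cases were in that library too, but Cyp2c29, Cyp2d9, Cyp3a25 and Cyp7a1 were chosen after their values there were seen, and they are given as descriptions. It had 68.1 CPM of Cyp7b1 (others 14.4–24.8), 24.9 CPM of Cyp2a12 (others 2.67–6.96), 16.7 CPM of Cyp2c44 (others 1.25–2.80), 50.7 CPM of Cyp2c29 (others 0.156–2.57), 58.4 CPM of Cyp2d9 (others 0.0505–4.21), 67.8 CPM of Cyp3a25 (others 0–4.32) and 26.7 CPM of Cyp7a1 (others 0–1.11). In C57BL/6J clean air, replicate 2 (number 3) had 4.20 CPM of Cyp2a12 (others 0.872–1.5) and 13.1 CPM of Cyp2j9 (others 9.76–10.7), and replicate 1 had 676 CPM of Cyp4b1 (others 579–599).

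The response to BD differed between the strains by the test of the difference for 2 genes. The log2 ratio of CAST/EiJ over C57BL/6J was -0.64 (-0.635) for Cyp4b1 and -0.30 (-0.304) for Cyp20a1 (edgeR adjusted p = 0.0237 and 0.0468).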

How the results depend on the processing

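Calls from the fit of all 23 libraries kept their direction in every alternative that tested them. Calls named from other fits did not all do so. The clean-air strain difference of Cyp2d26 was -1.94 without number 2 and 2.84 without title numbers over 100 (edgeR adjusted p = 0.0296 and 0.0154). Cyp4a32 and Cyp8b1 also turned for BD in CAST/EiJ, as given above. The number of P450 genes called for BD in C57BL/6J was 3, and was 5 without title numbers over 100, 6 with the number series as a covariate, 8 with that covariate and without CAST/EiJ clean-air number 2, and 1–5 on leaving out a replicate. For BD in CAST/EiJ it was 1, and was 5 by DESeq2, 0 with the compared groups alone, 4 with number 8 kept, 23 without title numbers over 100, 11 with the covariate, 0 at a level of 1 CPM, and 1–6 on leaving out a replicate, with 6 without number 2. Cyp2a22, the gene called, was lost in 3 of 30 alternatives, and is not among the 5 of DESeq2, which gave it no adjusted p. For the strain difference in clean air it was 24, and was 41 without title numbers over 100, 40 with the covariate, and 21–26 on leaving out a replicate. Under BD it was 23, and 22–25 on leaving out a replicate. For the difference of the responses it was 2, and was 1 with median-of-ratios size factors, 1 with no filter, 4 by DESeq2, 1 with number 8 kept, 4 without title numbers over 100, 0 with the covariate, 0 with the covariate and without number 2, and 0–5 on leaving out a replicate. The cause was not tested. The shares of all genes called in the alternatives are not given here, so their counts are not set against a background. The comparison within title numbers up to 100 rests on 2 CAST/EiJ clean-air libraries, of which number 2 is one.

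No paired analysis was possible because title numbers were not shared between the groups compared. Depth limits genes under 1 CPM, which stands for 10.9 counts in the smallest library.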
